A study of Rattus norvegicus with 8 samples.

Results

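The tachykinins are a family of neuropeptides, and the 6 rat genes described here encode their 3 precursors (Tac1, Tac3 and Tac4) and their 3 receptors (Tacr1, Tacr2 and Tacr3). The genes were found by the gene name given for each array probe, with Tac3 also accepted under its older rat name Tac2. This gave 7 probes of the 30367 noncontrol probes on the array, 2 of them for Tac1 and 1 for each of the other genes. All 6 genes are among the 18803 features, mostly genes represented by their brightest probe, that entered the comparison. The genes were chosen by family name with their Y+I and vehicle levels in these same 8 arrays already known, so those differences are given as descriptions, with no p-value.

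The animals were male Sprague Dawley rats, 3 months old, and messenger RNA was measured in their hippocampi. One group of 4 rats received yohimbine together with imipramine (Y+I) for 7 days, and the other 4 rats received vehicle for 7 days. Tissue was taken 2 h after treatment, and the RNA of each rat was hybridised to its own 1-colour Agilent array. Yohimbine blocks alpha2-adrenoceptors and imipramine inhibits the reuptake of noradrenaline and serotonin; doses are not given in the sources used here, and neither drug alone was analysed here.

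Precursor peptides are cut and amidated in secretory granules, and the released peptides act on receptors that couple mainly to Gq and phospholipase C. Tac1 gives substance P and neurokinin A, Tac3 gives neurokinin B and Tac4 gives hemokinin-1. The receptors respond to all of these but differ in preference: Tacr1 (NK1) prefers substance P, Tacr2 (NK2) prefers neurokinin A and Tacr3 (NK3) prefers neurokinin B. In forebrain, Tac1 is abundant in striatal projection neurons and in the habenula and is also made by interneurons.

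The probes are 60-base oligonucleotides, and 4 stretches are shown, each with a short motif in capitals. The first is the whole Tac1 probe that lies over the substance P coding sequence, at chr4:32651286-32651345 of rat build rn4. Its capitals mark the 15 bases, from base 31 to base 45, that code for the shared carboxy-terminal signature of tachykinins. The other lines are 30-base stretches of the probes of Tac3, Tac4 and Tacr2, ending in the capitals AATAAA, the canonical polyadenylation signal, found on the given strand.
Tac1, substance P coding probe: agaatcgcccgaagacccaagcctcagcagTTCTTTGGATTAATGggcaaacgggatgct
Tac3: aaaataccatgtctcctcctcaacAATAAA
Tac4: tgtatcatggcatgtgttatacaaAATAAA
Tacr2: agagttcactgcgccagtacccccAATAAA
AATAAA was found in 3 of the 7 tachykinin probes, against 8.39% of all 30367 probes, each of 60 bases, and against 11.0% of all probes when the reverse complement was counted as well. A stretch that codes for this signature, in any reading frame and with any codons, was found in 1 of the 7 probes and in 12 of all probes, or 16 on either strand. A match of letters is a description of the probe and not evidence of a used site. The second Tac1 probe lies at chr4:32657551-32657610, 6265 bases from the start of the first, and the files list the same 4 RefSeq transcripts for both. The Tac3 probe lies at chr7:67723606-67723665, the Tac4 probe at chr10:83954412-83954471, the Tacr1 probe at chr4:116780051-116780110 and the Tacr3 probe at chr2:232404773-232404832. The files give the Tacr2 probe no position.

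Values are log2 of the processed spot intensity after subtraction of the array's 75th percentile, so 75% of the spots of an array lie below 0 and each unit is a doubling. Levels of different probes are not on a common scale, and those of different tachykinin genes are not set against each other. Signals of different probes are added only in the summed levels of gene lists, explained below, which are compared between arrays. Across arrays, 64.4% to 74.8% of the 58717 noncontrol spots were well above background in Y+I, against 76.4% to 79.7% in vehicle. The dimmest probe well above background on an array read -8.97 to -7.42 in Y+I and -9.66 to -8.28 in vehicle. The spread between animals was larger under Y+I: the median SD over all features was 0.239 in Y+I and 0.134 in vehicle. All 8 arrays shared 1 slide, the Y+I arrays in one row and the vehicle arrays in the second row, and the effects of treatment and of row cannot be told apart. In bulk tissue, fewer cells of a type and less RNA per cell cannot be told apart either.

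Of the 3 peptide precursors, Tac3 was higher under Y+I, and Tac1 and Tac4 were lower. Of the 3 receptors, Tacr2 was higher, Tacr3 was lower, and Tacr1 was the one gene whose group means lay together. The median difference over the 6 genes was -0.32 log2 units, beside -0.02 over all features. Tac3, Tac4 and Tacr2, 3 of 6 genes, were among the features called at an adjusted p under 0.05 in the limma fit, with 2.33% of all features called (0.739% higher and 1.60% lower). The Y+I and vehicle values did not overlap for 5 of 6 genes, against 11.7% of all features (5.04% higher and 6.65% lower under Y+I). Both counts describe the choice of these genes and are not read further.

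**Figure D1:**
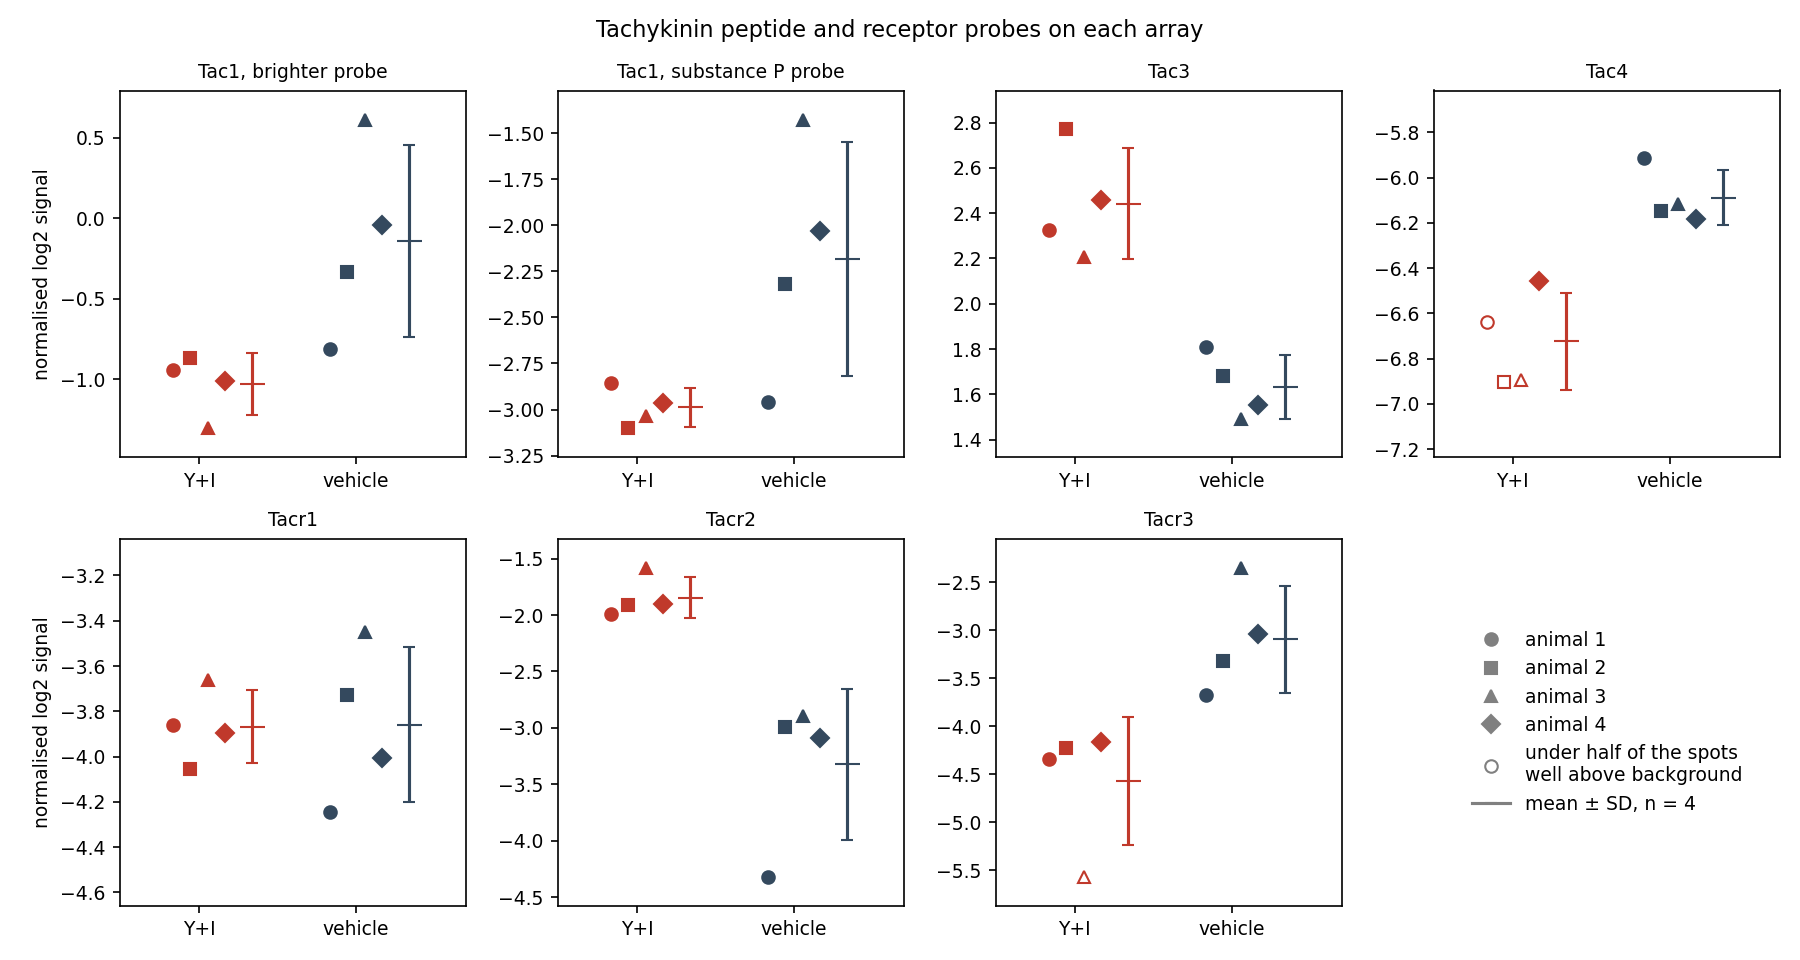
Log2 level (processed signal relative to the array's 75th percentile) of the 7 tachykinin probes, with 1 point per rat, the 4 Y+I rats to the left of the 4 vehicle rats, bars for the mean and SD of each group, and open points where most spots were not well above background. Tac3 and Tacr2 are higher in every Y+I rat than in any vehicle rat, Tac1 (its brighter probe), Tac4 and Tacr3 are lower in every Y+I rat, and the groups overlap for Tacr1 and for the substance P coding probe of Tac1.

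Tac3, the neurokinin B precursor, read 2.33, 2.77, 2.21 and 2.46 in Y+I animals 1 to 4, against 1.81, 1.68, 1.49 and 1.55 in vehicle animals 1 to 4. Every Y+I animal was above every vehicle animal, and the lowest Y+I value exceeded the highest vehicle value by more than either group's SD. The means were 2.44 ± 0.24 in Y+I and 1.63 ± 0.14 in vehicle (SD, n = 4 each), a difference of 0.81 ± 0.14 (SE) or 1.75-fold. Both of its spots were well above background on all 8 arrays, and the spread between animals was ordinary: 51.4% of features had a smaller SD in Y+I and 53.1% in vehicle. Among the rises of all features Tac3 ranked 209.

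Tac1, the precursor of substance P and neurokinin A, was read by 2 probes. The brighter probe, which represents the gene in the comparison, read -0.94, -0.87, -1.30 and -1.01 in Y+I, against -0.81, -0.33, 0.61 and -0.04 in vehicle. The highest Y+I animal and the lowest vehicle animal were only just apart, because vehicle animal 1 sat near the Y+I values. The means were -1.03 ± 0.19 in Y+I and -0.14 ± 0.60 in vehicle (SD, n = 4 each), and the difference of -0.89 ± 0.27 (SE) is a level 1.85-fold lower under Y+I.

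The substance P coding probe of Tac1, the one printed whole above, read -2.85, -3.10, -3.03 and -2.96 in Y+I, against -2.96, -2.32, -1.43 and -2.03 in vehicle. Here vehicle animal 1 fell inside the Y+I range and the groups overlapped. The means were -2.99 ± 0.11 in Y+I and -2.18 ± 0.64 in vehicle (SD, n = 4 each), with a difference of -0.80 ± 0.28 (SE), 1.75-fold lower under Y+I. After subtraction of each group's mean, the 2 Tac1 probes had a Pearson r of 0.94 over the 8 arrays. The 4 vehicle animals, which carry most of the spread, came in the same order on both probes, and the Y+I animals did not.

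Tac4, the hemokinin-1 precursor, was close to background. It read -6.64, -6.90, -6.89 and -6.46 in Y+I, against -5.91, -6.15, -6.12 and -6.18 in vehicle. The Y+I values all lay below the vehicle values, but the probe was well above background on 1 of 4 Y+I arrays, through 1 of 8 spots, against 8 of 8 spots in vehicle. The processed signal behind these values was 11.9 to 18.9 intensity units in Y+I and 27.9 to 33.8 in vehicle. The means were -6.72 ± 0.21 in Y+I and -6.09 ± 0.12 in vehicle (SD, n = 4 each), a difference of -0.63 ± 0.13 (SE) or 1.55-fold lower under Y+I. With normexp background correction the difference turned to 0.21, so the direction of Tac4 depends on how background is removed.

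Tacr1, the substance P receptor NK1, was measured by 10 spots on each array, the most of the 6 genes. It read -3.86, -4.05, -3.66 and -3.90 in Y+I, against -4.25, -3.73, -3.45 and -4.01 in vehicle, and the Y+I values lay inside the vehicle range. The means were -3.87 ± 0.16 in Y+I and -3.86 ± 0.34 in vehicle (SD, n = 4 each), a difference of -0.01 ± 0.17 (SE). The SD between its single spots on one array was 0.116 to 0.175 in Y+I and 0.035 to 0.121 in vehicle. Each animal's value averages its spots, so these SDs are not set against the SD between animals. In vehicle, 5 of its spots were marked as outliers and left out, 1 in animal 2 and 4 in animal 4.

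Tacr2, the neurokinin A receptor NK2, had the largest positive difference of the 6 genes and ranked 25 among the rises of all features. It read -1.99, -1.91, -1.58 and -1.91 in Y+I, against -4.32, -3.00, -2.89 and -3.09 in vehicle. All Y+I animals were above all vehicle animals, and vehicle animal 1 stood below the other 3. The means were -1.85 ± 0.18 in Y+I and -3.32 ± 0.67 in vehicle (SD, n = 4 each), a difference of 1.48 ± 0.29 (SE) or 2.78-fold. Without vehicle animal 1 the difference was 1.14.

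Tacr3, the neurokinin B receptor NK3, went the other way from its preferred ligand's precursor. It read -4.34, -4.22, -5.57 and -4.16 in Y+I, against -3.68, -3.32, -2.35 and -3.04 in vehicle. The groups did not overlap, although both were widely spread, and Y+I animal 3, where 0 of 2 spots were well above background, was the lowest. The means were -4.57 ± 0.67 in Y+I and -3.10 ± 0.56 in vehicle (SD, n = 4 each), a difference of -1.48 ± 0.37 (SE) or 2.78-fold lower under Y+I. With normexp the difference was -0.73. Tac4 and Tacr3 passed the filter on background only through the vehicle group, and the other 4 genes were well above background on all 8 arrays.

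**Figure D2:**
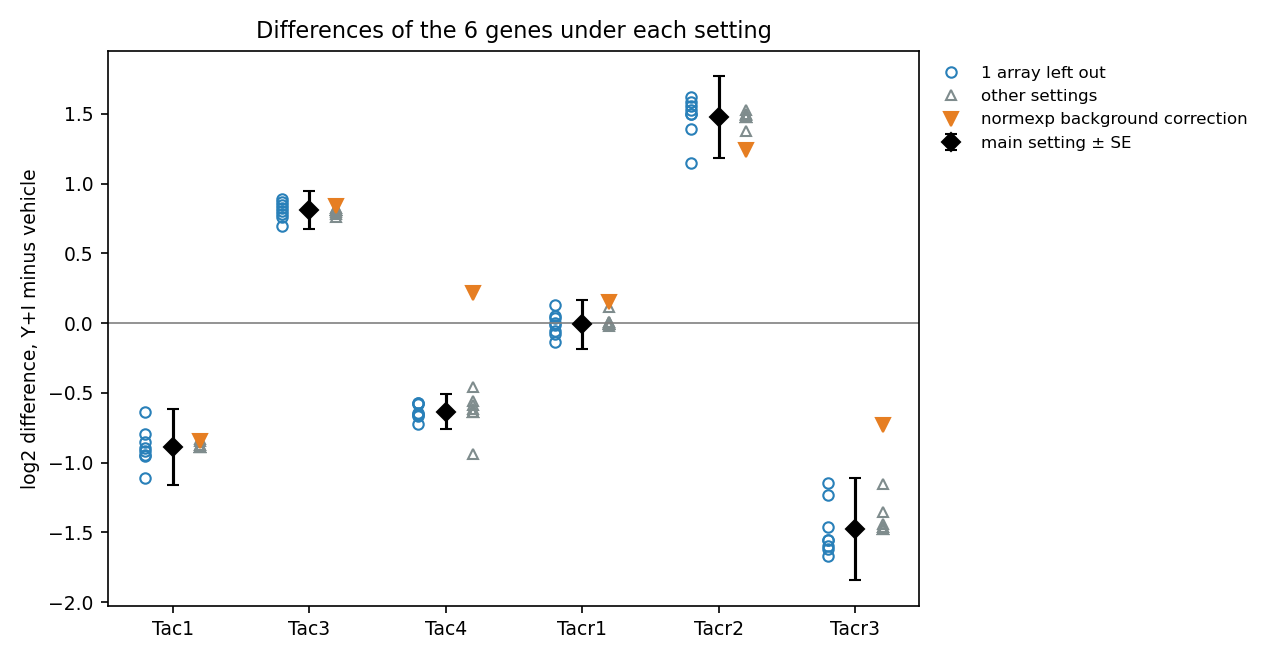
Difference between Y+I and vehicle (log2, Y+I minus vehicle) of each tachykinin gene, with a black diamond and SE bar for the main setting, open circles for fits with 1 array left out, triangles for other settings and an orange triangle for normexp background correction. Tac3 and Tacr2 stay above 0 and Tac1 and Tacr3 below 0 in every setting drawn, Tacr1 lies on both sides of 0, and Tac4 is above 0 with normexp alone.

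For Tac1, Tacr1 and Tacr2 the spread between animals was larger in vehicle than in Y+I. The vehicle SD of Tac1 was larger than that of 98.1% of features, that of Tacr2 larger than 98.6%, that of Tacr3 larger than 97.7% and that of Tacr1 larger than 90.6%. For Tac3 and Tac4 the vehicle SD was larger than 53.1% and 44.3% of features. Under Y+I the SD of Tac1, Tacr1 and Tacr2 was larger than only 36.8%, 27.3% and 33.7% of features, and Tacr3 alone stayed wide at 94.4%.

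The same animals set the ends of this range. Vehicle animal 1 was the lowest vehicle animal, and vehicle animal 3 the highest, for the same 4 genes: Tac1, Tacr1, Tacr2 and Tacr3. Over all features, vehicle animal 1 was the lowest vehicle animal in 31.8% and vehicle animal 3 the highest in 32.0%. For Tac3 and Tac4, vehicle animal 1 was instead the highest. As deviations from the group means over the 8 arrays, Tac1 and Tacr3 had a Pearson r of 0.83 and Tacr1 and Tacr2 of 0.80, while Tac3 and Tacr1 had an r of -0.68. These are descriptions of 8 arrays that share labelling and slide, with no test.

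**Figure D3:**
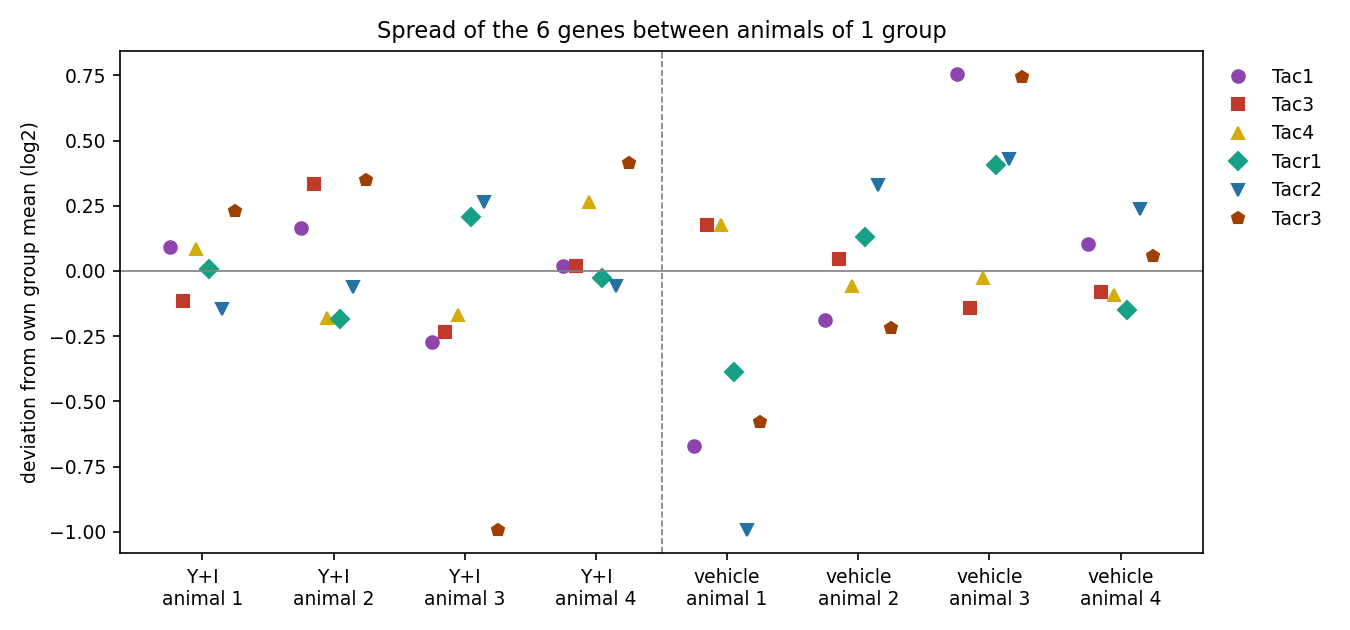
Deviation of each animal from its own group's mean (log2) for the 6 tachykinin genes, with the 4 Y+I animals to the left of the 4 vehicle animals. Vehicle animal 1 is the lowest vehicle animal and vehicle animal 3 the highest for Tac1, Tacr1, Tacr2 and Tacr3, and vehicle animal 1 is the highest for Tac3 and Tac4.

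For the 4 genes well above background everywhere, the genes most like them were sought by the same measure, Pearson r of deviations from group means over 8 arrays, among 11030 named features. Each r is a description of 8 arrays and the highest of 11030 candidates, with no test. Tac1 was most like Dld (0.991), Ctsk (0.990) and Rxrg (0.984), and of these Rxrg, a retinoid X receptor, was among the features called, with a difference of -2.17. Tac3 was most like Rce1 (0.995), Zfp511 (0.991) and Phf10 (0.990), none of them called. Tacr1 was most like Ostc (0.962), Pias3 (0.958) and Eef1e1 (0.945), and Tacr2 was most like Snf8 (0.968), Chst8 (0.967) and Rerg (0.966). Of these last 6 genes Chst8 was called, with a difference of -0.54, opposite in sign to that of Tacr2.

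The enzymes and granule proteins that turn tachykinin precursors into peptides did not pass the test. Of 15 such genes, 14 were measured. Of these 14, 0 were called by limma, beside 2.33% of all features, and 1 had an unadjusted p under 0.05, beside 15.6%. Their median difference was -0.01, their range -0.21 to 0.42, and 6 of 14 lay above 0. The smallest p belonged to Pcsk1, a prohormone convertase, at 0.42 ± 0.16 (SE; limma adjusted p = 0.244), followed by Scg2, a granin of secretory granules, at -0.16 ± 0.12 (SE; limma adjusted p = 0.574).

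Of 10 peptidase genes whose enzymes can cleave tachykinins, 1 was called lower, beside 1.60% of all features, and 9 did not pass. The median of the 10 was -0.10. The 1 called had passed the filter only through vehicle. A filter for probes well above background on all 8 arrays left 6 genes and removed the 1 called. Of those 6, 0 were called by limma and 0 had an unadjusted p under 0.05. Dpp4, which trims dipeptides from the amino terminus of peptides including substance P, was near background in all 4 Y+I animals, none of which read well above it. Its values were -8.01, -7.68, -7.33 and -8.76 in Y+I, against -4.54, -5.64, -6.18 and -5.58 in vehicle. On the scale of the processed signal, Dpp4 was called lower, with a difference of -2.46 ± 0.39 (SE; limma adjusted p = 0.0173). Because its Y+I values were not well above background, the size is uncertain and no fold is given. That call was lost with normexp, where the difference was -0.27 (limma adjusted p = 0.377), and without vehicle animal 4 (limma adjusted p = 0.0617). Anpep, aminopeptidase N, differed by -0.72 ± 0.16 (SE; limma adjusted p = 0.0535), was well above background on 3 of 4 Y+I arrays and did not pass. With normexp its difference was -0.074, and it passed with quantile normalisation, median centring, no filter or Y+I animal 3 left out.

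All 24 genes of receptor coupling and desensitisation were measured, and 1 fell while 23 did not pass, beside 2.33% of all features called. Their median difference was 0.00, with 12 of 24 above 0, and 9 of 24 had an unadjusted p under 0.05, beside 15.6% of all features. Rgs4, a GTPase-activating protein that shortens Gq and Gi signalling, read 0.40, 0.33, 0.05 and 0.59 in Y+I, against 2.88, 1.99, 1.90 and 2.52 in vehicle. No Y+I animal came near the lowest vehicle animal. The difference was -1.98 ± 0.22 (SE), 3.95-fold lower under Y+I (limma adjusted p = 0.00616), and it was called with each array left out in turn (limma adjusted p from 0.0123 to 0.0369). Itpr3, an inositol trisphosphate receptor, differed by -0.70 ± 0.16 (SE; limma adjusted p = 0.0629) and was well above background on 2 of 4 Y+I arrays. With normexp its difference was -0.017, and it passed with quantile normalisation, median centring, no filter or Y+I animal 1 left out.

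**Figure D4:**
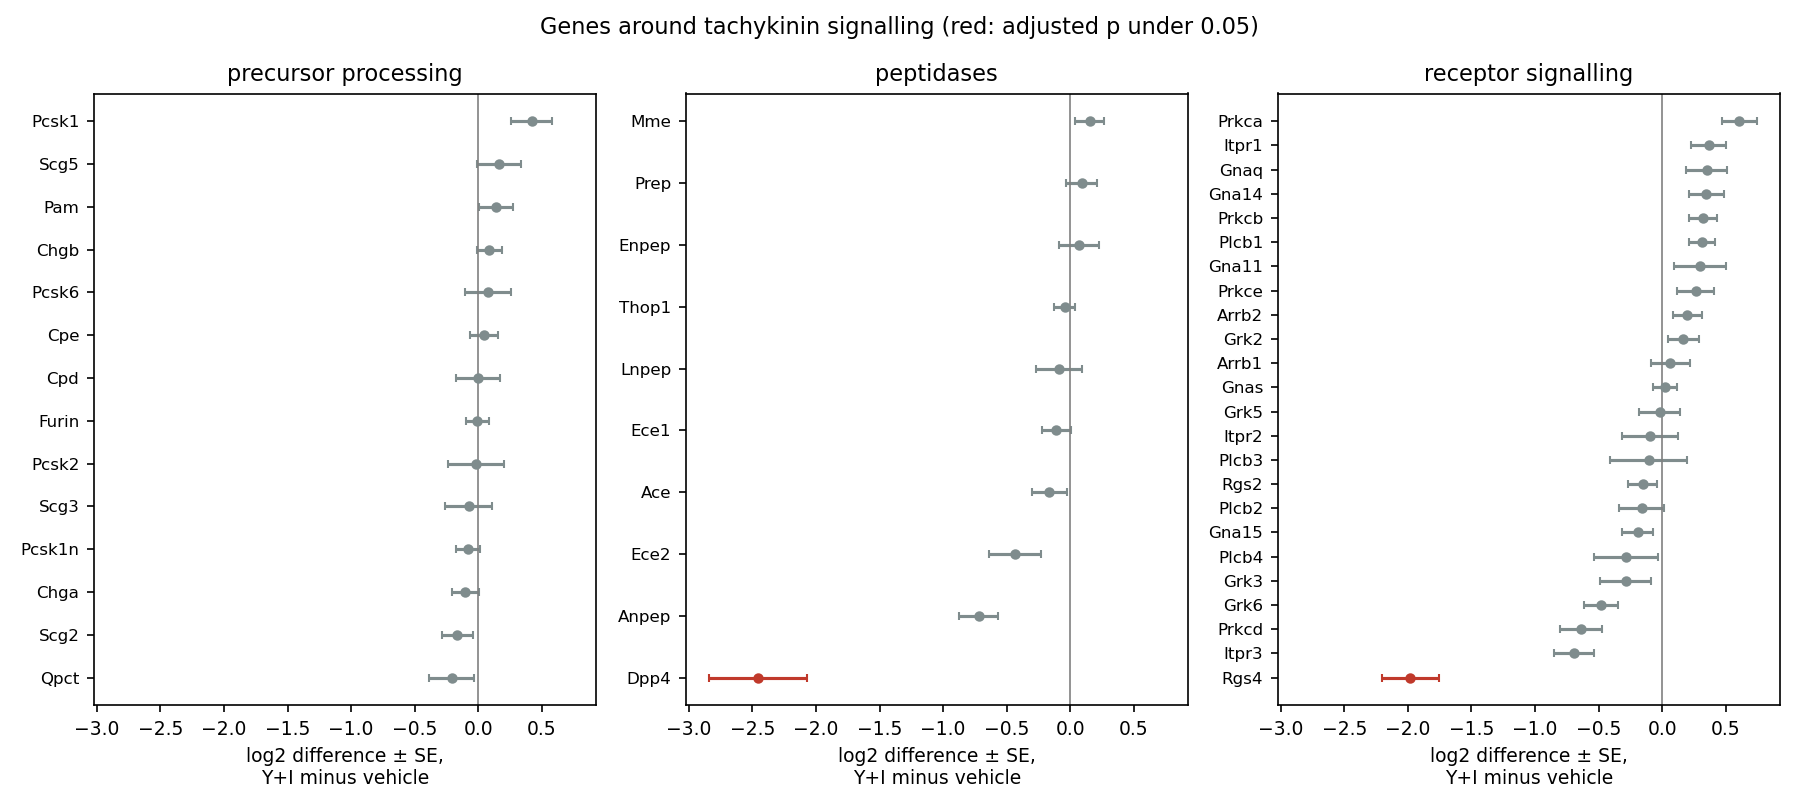
Difference between Y+I and vehicle (log2, Y+I minus vehicle) of each measured gene of tachykinin precursor processing (14), tachykinin peptidases (10) and receptor signalling (24), with SE bars and the genes called in red. Most points lie near 0, and Dpp4 and Rgs4, at -2.46 and -1.98, stand far below the rest of their lists.

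Markers of tissue and cell types that carry tachykinins, or that lie next to the hippocampus, were read on the same arrays. A summed level is log2 of the added signals of a list's measured genes. It follows the brightest probes most and does not measure the amount of a tissue. Principal neuron markers of the hippocampus were all measured (12 of 12), with 10 above 0, a median of 0.53 and a summed level of 6.12 to 6.27 in Y+I against 5.16 to 5.81 in vehicle. The lowest sum was that of vehicle animal 1, which was also the lowest vehicle animal for Tac1 and all 3 receptors. Camk2a, a neuronal kinase, rose by 0.78 ± 0.15 (SE; limma adjusted p = 0.0366), a call that was lost whichever array was left out (limma adjusted p from 0.0512 to 0.106).

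Beside the lower Tac1 stand the striatal and the thalamic and habenular lists. Of 12 striatal markers 9 were measured, with 8 below 0, a median of -0.60, and a summed level of 3.07 to 3.18 in Y+I against 3.19 to 3.27 in vehicle; Isl1, Gpr6 and Ido1 did not pass the filter. Drd2, the dopamine D2 receptor, fell by 0.60 ± 0.11 (SE; limma adjusted p = 0.0278), which passed in only 2 of the 8 fits with an array left out. Foxp1 and Pde10a, which weigh most in the sum, differed by -0.06 and 0.21, and Adora2a by -0.005. None of them passed. Of 14 thalamic and habenular markers 8 were measured, with 5 below 0, a median of -0.37 and a summed level of 1.16 to 1.43 in Y+I against 1.79 to 2.25 in vehicle. Slc17a6, a vesicular glutamate transporter, fell by 1.17 ± 0.21 (SE; limma adjusted p = 0.0291), again in 2 of 8 such fits, and the measured habenular marker Chrnb4 differed by 0.10 and did not pass. Tcf7l2 differed by 0.09 and Zic1 by 0.38, and neither passed. The habenular markers Gpr151, Pou4f1, Chrna3 and Chrnb3 and the thalamic marker Gbx2 did not pass the filter. Vehicle animal 1, the lowest vehicle animal for Tac1, had the highest sum of both lists (3.27 and 2.25). The part of these tissues in the Tac1 difference was not tested.

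All 14 markers of GABAergic interneurons, some of which make Tac1 or Tacr3, were measured, with 11 below 0, a median of -0.24 and a summed level of 6.50 to 6.85 in Y+I against 6.74 to 7.07 in vehicle. Of these, Htr3a, a serotonin-gated channel, fell by 0.99 ± 0.13 (SE; limma adjusted p = 0.0095), a call lost without Y+I animals 2 and 3 (limma adjusted p = 0.0578). All 10 meningeal markers were measured, with 9 below 0 and a median of -0.61. Their sums were 1.69 to 2.01 in Y+I against 2.21 to 2.53 in vehicle. Of the 10, 3 were called lower, beside 1.60% of all features. The 3 were Slc6a13, a GABA transporter, at -1.02 ± 0.14 (SE; limma adjusted p = 0.0105), the collagen gene Col1a1 at -1.03 ± 0.15 (SE; limma adjusted p = 0.0135) and Igfbp2 at -0.73 ± 0.15 (SE; limma adjusted p = 0.0383). Slc6a13 was -0.49 with normexp and was lost without Y+I animals 2 and 3 (limma adjusted p = 0.0634). A second Col1a1 probe differed by -0.16, and Igfbp2 passed in 1 of the 8 fits with an array left out.

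Of 9 mast cell markers, cells on which tachykinins can act, 3 were measured. Hdc, histidine decarboxylase, rose by 2.47 ± 0.26 (SE; limma adjusted p = 0.00568) and the tryptase Tpsab1 by 1.61 ± 0.20 (SE; limma adjusted p = 0.00829), while Kit, also listed for interneurons, differed by -0.25. With normexp Tpsab1 rose by 0.82, and it was lost without Y+I animals 2 and 3 (limma adjusted p = 0.0525). The summed level was -1.39 to -0.96 in Y+I and -2.38 to -1.98 in vehicle, and Tpsb2, Cpa3, Cma1, Mcpt1, Fcer1a and Ms4a2 did not pass the filter. Of 7 smooth muscle and pericyte markers, which bear on Tacr2 as a receptor of smooth muscle, 6 were measured. Of these 6, 0 were called by limma, beside 2.33% of all features, and 3 had an unadjusted p under 0.05, beside 15.6%. Their median was -0.24, and their sums were 0.39 to 0.70 in Y+I against 0.61 to 0.85 in vehicle, which overlap. The part of mast cells, interneurons, meninges or muscle cells in the tachykinin differences was not tested.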

How the data were processed

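Hippocampal RNA of 8 rats, each a separate animal per the labels, was read on 1-colour Cy3 Agilent arrays. The authors deposited scanner files whose processed intensity, per the file headers, was background-subtracted by Agilent Feature Extraction 10.5.1.1. Their deposited log2 value table of the same arrays, with unstated centring, served as an alternative.

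Main values were log2 processed intensity minus each array's 75th percentile over noncontrol spots. Spots with either of 2 outlier marks were left out, no spot was saturated, and spots of a probe were averaged. A probe was kept if, in either group, at least 50% of its spots exceeded background clearly on each of the 4 arrays, with 3 values per group. For dim spots the background removed is large beside the signal, so its estimate can change the size of a difference. Symbols were updated through RefSeq GRCr8 (18004 probes by accession, 2320 by symbol, 626 by synonym, 1999 by file name, 7418 unnamed), and the brightest kept probe stood for a gene. Probe sequences and rn4 positions are those in the files.

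Groups were compared with limma 3.58.1 (lmFit, eBayes; R 4.3.3), and two-sided p-values were adjusted by Benjamini and Hochberg's method over 18803 features. The procedure was tested on simulated data. The genes and lists were chosen with earlier results of these data known. Named were every tachykinin probe, list members that were called (at most 4 per marker list) or otherwise the 2 pathway genes with the smallest p, and the 3 genes most like each member. Named in addition, after their values were seen, were the uncalled genes of smallest p in 2 lists, Anpep and Itpr3. So were the markers Adora2a, Foxp1, Pde10a, Tcf7l2, Zic1 and Chrnb4 and the markers that did not pass the filter. Alternatives were other background corrections, normalisations and filters, a replicate block and each array left out. Python 3.11.15 and matplotlib 3.10.9 drew the figures.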

Additional observations from a re-analysis of the deposited data

Results flagged for a closer look

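In 4 of the 44 groups of 4 animals examined, 1 animal stood apart from the other 3 by Dixon's criterion; chance marks about 1 in 20 groups. For Tacr3 under Y+I, animal 3 read -5.57 and the others -4.34 to -4.16, and neither spot of animal 3 was well above background. For Tacr2 in vehicle, animal 1 read -4.32 and the others -3.09 to -2.89. Slc17a6 under Y+I read -0.17 in animal 4 and -0.96 to -0.85 in the others. Anpep in vehicle read -4.82 in animal 2 and -4.62 to -4.58 in the others.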

How the results depend on the processing

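The number of features called was 439 in the main analysis, 665 with cyclic loess, 3887 without the filter on background, 144 with a replicate block, 170 without Y+I animals 2 and 3, and 120 to 348 with each array left out. Of the main calls 31.7% were higher; with normexp the split was 400 higher and 202 lower, with probes well above background on all 8 arrays 161 and 211, and without the filter 3361 and 526. Normexp moved the median of all features to 0.09. Of the tachykinin genes, 3 were called in the main analysis. The count was 2 (Tac3 and Tacr2) with normexp, median centring, the value table, the all-array filter or a variance trend. It was 4 without the filter, and 0 with the replicate block or without Y+I animals 2 and 3. With each array left out it was 0 to 2. Tac3 alone was called without Y+I animal 1, 2 or 3, and Tac4 alone without Y+I animal 4. Tac3 and Tacr2 were called without vehicle animal 1, and none without vehicle animal 2, 3 or 4. These counts describe genes chosen with this contrast known and are not read further. The Tac4 difference was 0.21 with normexp, -0.94 with cyclic loess and -0.46 without Y+I animals 2 and 3, and that of Tacr3 was -0.73 with normexp. With each array left out the differences ran from -1.11 to -0.64 for Tac1, 0.70 to 0.89 for Tac3, -0.72 to -0.57 for Tac4, -0.14 to 0.13 for Tacr1, 1.14 to 1.62 for Tacr2 and -1.67 to -1.15 for Tacr3. Peptidase calls, 1 in the main analysis, numbered 2 with quantile normalisation, median centring or no filter, 0 with normexp (2 at an unadjusted p under 0.05), the all-array filter (0) or the replicate block (3), and 0 to 2 with each array left out. Processing genes had 1 call without the filter. Signalling calls, 1 in the main analysis, numbered 3 with normexp or cyclic loess, 2 with quantile normalisation, median centring, the all-array filter or without Y+I animals 2 and 3, 4 without the filter, and 1 to 2 with each array left out. With the replicate block the adjusted p (limma) was 0.0619 for Dpp4 and 0.0592 for Htr3a. Over all features, same-numbered animals had correlations of 0.05, -0.11, -0.04 and 0.04 after removal of group means. Of 8 arrays, 2 correlated best with their own number. These values cannot tell whether same-numbered animals shared handling, and the replicate block is given as an alternative only. The causes were not tested. Signal over background limits Tac4 and Tacr3, and 4 animals per group limit every value.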
